A study of Rattus norvegicus with 21 samples.

Results

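The cell cycle and mitosis genes described here are 40 named genes whose transcripts are used to read cell division, in the liver of male rats given tert-butylphenyl diphenyl phosphate (BPDP). BPDP is an aryl phosphate ester that serves as a flame retardant. Members were found as probe sets whose annotated symbol is a listed gene, with Cdk1 also accepted under its older symbol. Of the 40 genes, 37 had a probe set naming that gene alone, out of 14217 genes measured. They had 52 such probe sets among 31042 tested, and every count below uses the brightest probe set of a gene unless another is named. Tpx2 and Cdc6 had none, and Rrm2 was read only by 2 probe sets that also name Rrm2l1, so these 3 genes were left out of every count. Of the 37 measured members, 29 had every group mean above the highest lower quartile of the arrays, 5.10 on the log2 scale. The other 8 lay at or below it in at least 1 group: Mki67, Ccna2, Ccnb1, Cdkn3, Aurkb, Bub1, Bub1b and Ect2. No filter on low signal was applied.

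The animals were male Harlan Sprague-Dawley rats of unstated age that received 4 consecutive daily gavage doses, and liver RNA was hybridised to a rat expression array. The vehicle group received corn oil and holds 6 arrays. The dosed groups received BPDP at 64.6, 129.2, 258.1, 516.2 or 1032.5 mg/kg in corn oil and hold 3 arrays each. The protocol names 5 vehicle rats where 6 vehicle arrays are listed, and it rounds the doses to whole numbers. Values are log2 signals, so a difference of 1 is a doubling of signal, and array number limits the precision. Differences are given with limma's standard error. A gene is called where its two-sided limma p, after Benjamini-Hochberg adjustment across every probe set tested, is below 0.05, and "rose" and "fell" are kept for called genes. The hepatocyte markers Alb, Apoa1 and Ttr, which encode secreted plasma proteins, were bright on all 21 arrays, at 15.33 to 15.35, 13.86 to 14.30 and 14.75 to 14.88. In whole tissue, a change in the number of dividing cells and a change in transcript per cell cannot be told apart.

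Cells divide through ordered waves of transcription. Before S phase, E2F factors switch on genes for origin licensing, the replicative helicase and nucleotide supply. Before mitosis, a later wave supplies cyclins A and B, their kinase Cdk1, the spindle kinesins, the checkpoint kinases and the anaphase machinery. Adult hepatocytes are mostly quiescent, but the liver can re-enter the cycle after tissue loss or exposure to mitogenic chemicals. Promoters of the mitotic wave commonly carry CCAAT boxes and the cell cycle genes homology region (CHR), whereas S phase promoters commonly carry E2F sites.

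Promoter sequences are shown for 4 of the called members. Cdkn3 and Ccnb2 were called at both 258.1 and 516.2 mg/kg, as were Birc5 and Kif11. Mcm2 stands for the helicase, and Kif11 was the only member whose brightest probe set was called at the highest dose. The windows run from 250 bases before to 50 bases after the start in RefSeq, build GRCr8, and are printed 5′ to 3′ on the gene's strand. That start was the outer boundary of the RefSeq gene for 19036 of 27457 windows checked, and which start the others use was not determined, so a motif share describes these windows and not every promoter of a gene. Capitals mark 3 kinds of motif, searched on both strands. The CCAAT box was searched as those 5 letters and the CHR as TTTGAA. The E2F motif was searched as TTTCCCGC and also as TTTCGCGC or TTTGCCGC or TTTGGCGC.
Cdkn3 (chr15:22502136-22502435, plus strand): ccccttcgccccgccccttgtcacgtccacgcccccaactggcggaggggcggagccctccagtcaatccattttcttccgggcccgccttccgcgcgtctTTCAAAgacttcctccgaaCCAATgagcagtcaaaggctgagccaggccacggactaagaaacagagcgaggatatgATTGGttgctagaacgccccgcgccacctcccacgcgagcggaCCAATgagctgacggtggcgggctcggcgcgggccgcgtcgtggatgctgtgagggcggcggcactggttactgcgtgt
Ccnb2 (chr8:79981609-79981908, minus strand): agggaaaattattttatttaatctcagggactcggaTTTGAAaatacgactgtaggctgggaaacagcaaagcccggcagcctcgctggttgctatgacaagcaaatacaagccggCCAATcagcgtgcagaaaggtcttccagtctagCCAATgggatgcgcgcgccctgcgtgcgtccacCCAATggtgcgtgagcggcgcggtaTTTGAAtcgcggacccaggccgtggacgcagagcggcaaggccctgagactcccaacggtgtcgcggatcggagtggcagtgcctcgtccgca
Mcm2 (chr4:122918045-122918344, minus strand): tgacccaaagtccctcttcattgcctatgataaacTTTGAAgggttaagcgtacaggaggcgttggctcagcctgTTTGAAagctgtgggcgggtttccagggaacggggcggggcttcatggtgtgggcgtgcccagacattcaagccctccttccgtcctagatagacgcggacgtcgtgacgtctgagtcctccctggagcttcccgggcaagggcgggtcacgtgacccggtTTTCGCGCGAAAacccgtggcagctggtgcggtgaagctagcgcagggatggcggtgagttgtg
Kif11 (chr1:244536617-244536916, plus strand): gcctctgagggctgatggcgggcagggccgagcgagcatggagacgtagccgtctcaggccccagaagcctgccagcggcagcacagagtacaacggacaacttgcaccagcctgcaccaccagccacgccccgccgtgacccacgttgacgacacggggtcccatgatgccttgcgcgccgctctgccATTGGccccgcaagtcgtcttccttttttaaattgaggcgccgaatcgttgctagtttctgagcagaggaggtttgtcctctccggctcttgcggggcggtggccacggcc
The Cdkn3 and Ccnb2 windows each held 3 CCAAT matches, with 1 CHR match in Cdkn3 and 2 in Ccnb2. The Mcm2 window held 2 overlapping E2F matches on opposite strands and 2 CHR matches, with no CCAAT. Kif11 held a single CCAAT match and neither of the other motifs. The window of Birc5, not printed, held 1 CCAAT match, 1 CHR match and no E2F match. RefSeq windows were matched for 30 of the 37 measured members, not for Aurkb, Ccna2, Ccnd1, E2f1, Mcm4, Racgap1 and Ube2c. CCAAT occurred in 22 of these 30 (73.3%), against 37.5% of 33469 windows. Those 33469 are all full-length RefSeq windows and are not limited to the genes measured here. The CHR letters occurred in 14 (46.7%, against 18.3%), and the E2F letters in 8 (26.7%, against 2.14%). A match is a description of letters and not a binding site. Of the 10 members called at 516.2 mg/kg, 9 had a window, of which 5 held CCAAT, 4 the CHR and 2 the E2F letters.

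Taken over the 37 genes, signal was low at the lowest dose, was higher at each step to 516.2 mg/kg and was lower again at 1032.5 mg/kg. The mean log2 signal was 6.56 ± 0.29 (SD, n = 6) in the vehicle group, with the 6 arrays between 6.10 and 6.98. In the 64.6 mg/kg group it was 6.14 ± 0.03, followed by 6.47 ± 0.10 at 129.2, 6.80 ± 0.08 at 258.1 and 6.99 ± 0.19 at 516.2, and then by 6.37 ± 0.24 at 1032.5 mg/kg (SD, n = 3 each). At 64.6 mg/kg the arrays, from 6.12 to 6.18, lay just above the lowest vehicle array. At 516.2 mg/kg they were 6.77, 7.09 and 7.11, of which replicate 1 fell inside the vehicle range and the other two above it. At 1032.5 mg/kg replicates 1 and 2 (6.23 and 6.24) lay together and replicate 3 was higher at 6.65. These are descriptive means over genes chosen together and carry no test.

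**Figure D1:**
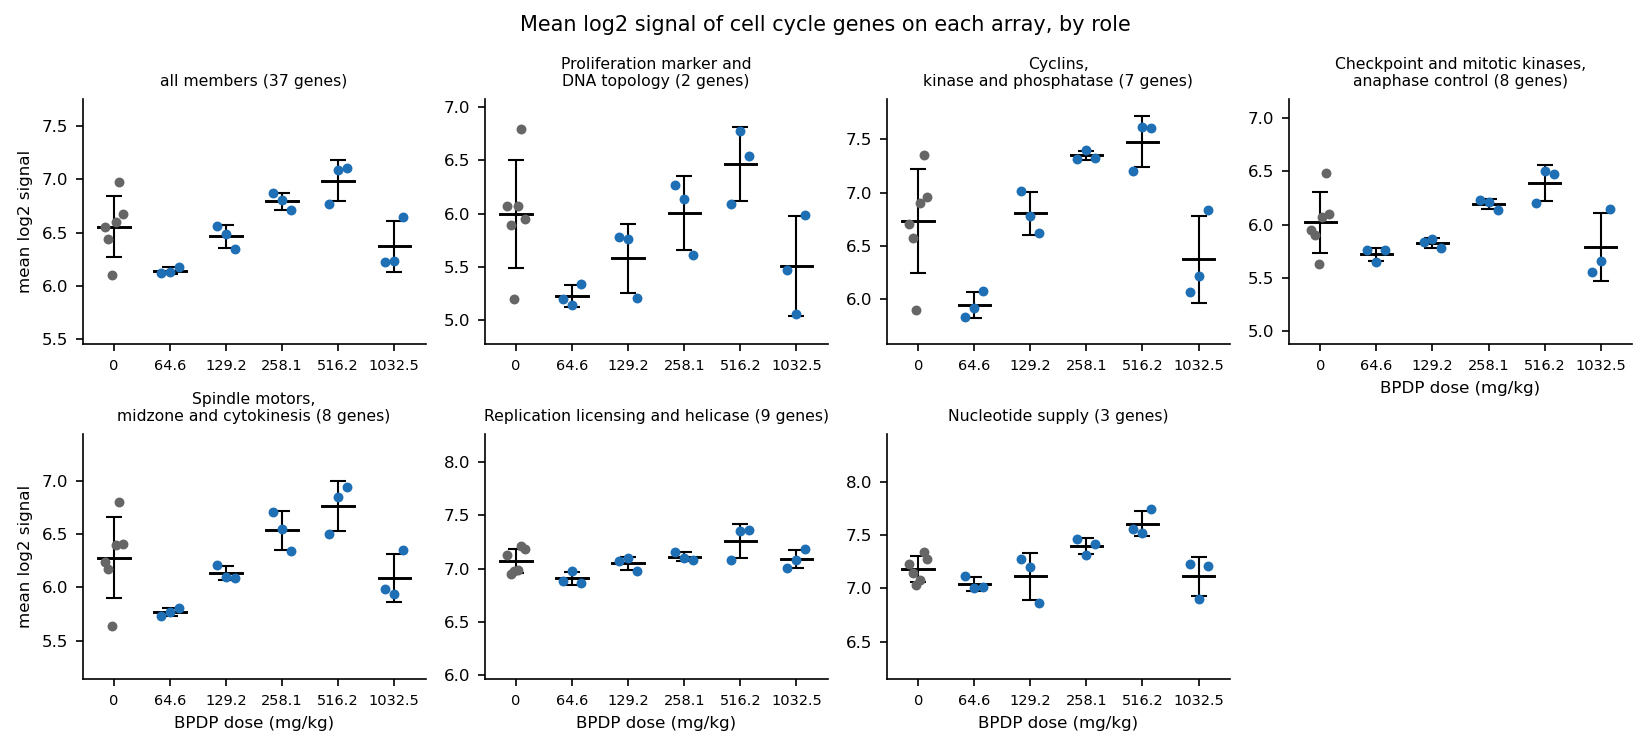
Mean log2 signal of the measured cell cycle genes on each array (points) against BPDP dose in mg/kg, for all 37 members and for each of 6 roles, with group means (bars) and SD (whiskers); vehicle arrays are grey and each panel spans the same log2 range. The mean over 37 genes is lowest at 64.6 mg/kg (6.14) and highest at 516.2 mg/kg (6.99), while the vehicle arrays alone span 6.10 to 6.98.

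The order of the group means was shared by most members. The lowest of the 6 group means was at 64.6 mg/kg in 25 of 37 members (67.6%), against 18.3% of all genes. The highest was at 516.2 mg/kg in 29 (78.4%), against 25.8%. Signal was higher at each step from 64.6 to 516.2 mg/kg in 26 members (70.3%), against 12.9%, and was lower at 1032.5 than at 516.2 mg/kg in 34 (91.9%), against 55.6%. The members also moved together within the vehicle group: replicate 5 was the highest vehicle array in 27 members and replicate 3 the lowest in 25, against 14.5% and 14.3% of all genes. Members that share an array therefore give no independent counts of a dose effect.

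**Figure D2:**
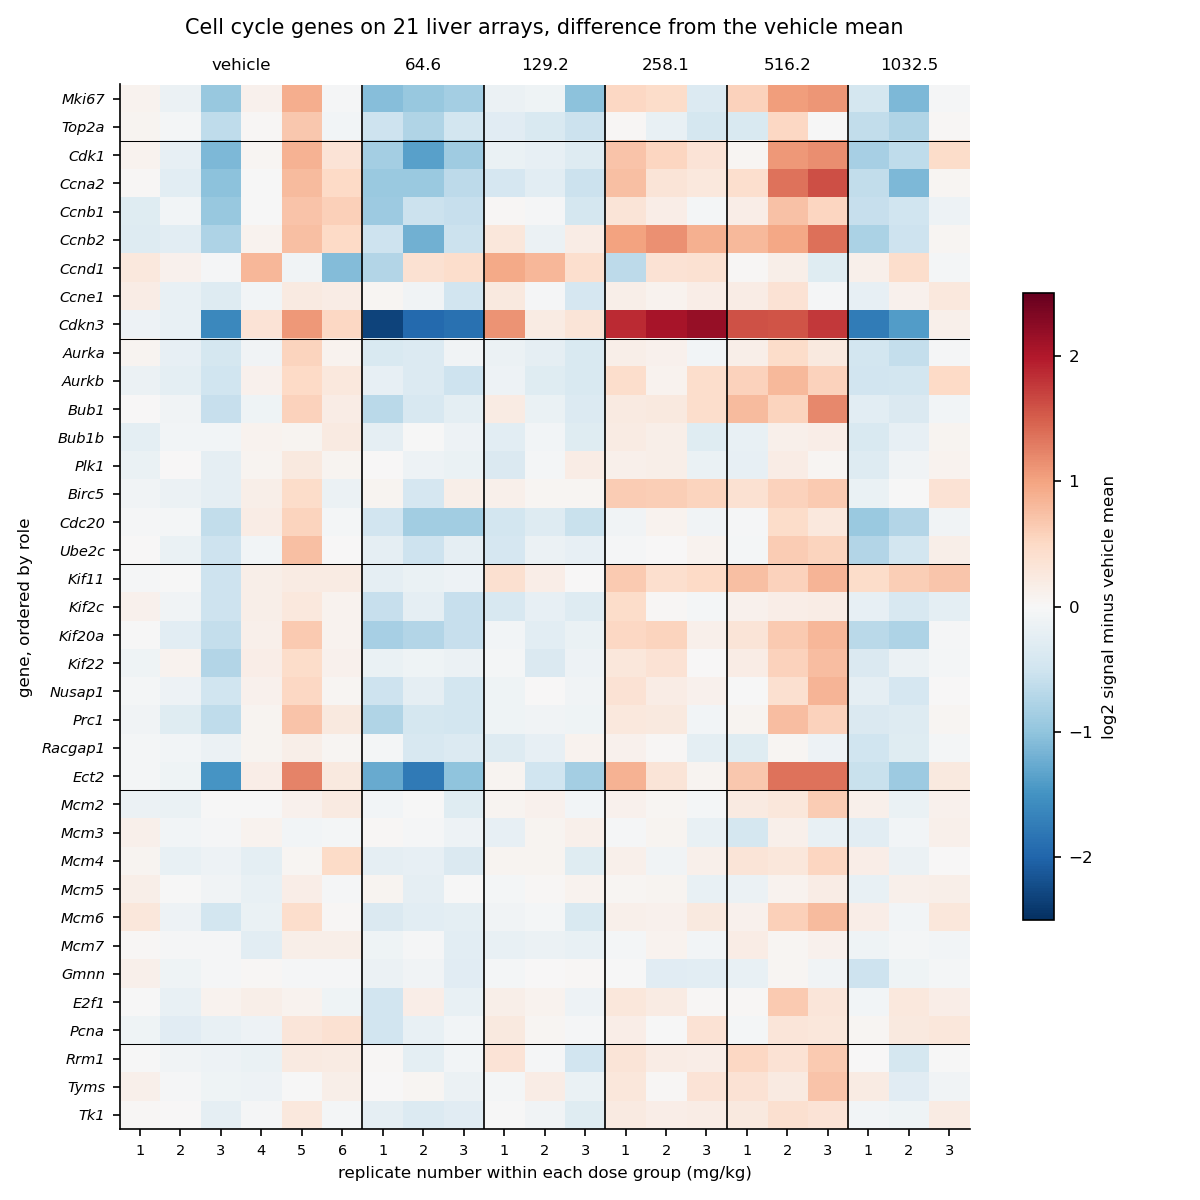
Log2 signal minus the vehicle mean for the 37 measured genes (rows, ordered by role) on all 21 arrays (columns, by dose in mg/kg and replicate number), with red above and blue below the vehicle mean and the colour scale ending at the largest size rounded up. Vehicle replicate 3 is pale to dark blue and replicate 5 red across most mitotic genes, the 64.6 mg/kg arrays are blue, and Cdkn3 shows the deepest colours at both ends.

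Against the vehicle group, called members were few at the lowest doses and most numerous at 516.2 mg/kg. At 64.6 mg/kg 1 of 37 members fell and none rose, where 0.387% of all genes were called and 0.19% lower. At 129.2 mg/kg none was called (0.521% of genes), and 4 members (10.8%) had an unadjusted limma p under 0.05, against 9.11% of genes. At 64.6 mg/kg 16 members (43.2%) did, against 9.32% of genes. The same share of members was 10.8% at 258.1 mg/kg, 56.8% at 516.2 and 21.6% at 1032.5, against 16.6%, 27.0% and 23.3% of genes. At 258.1 mg/kg 4 rose and none fell (3.56% of genes called, 2.23% higher). At 516.2 mg/kg 10 rose and none fell (8.93% called, 6.3% higher). At 1032.5 mg/kg 1 rose and none fell (8.95% called, 4.81% higher). All treated arrays lay beyond all vehicle arrays in 2 members at 64.6 mg/kg, Cdkn3 and Tk1, both lower (2.2% of genes lower), and, higher, in 4 at 258.1 mg/kg (5.66%), 7 at 516.2 mg/kg (8.97%) and 1 at 1032.5 mg/kg (6.89%). The median member difference was -0.27, -0.10, 0.16, 0.38 and -0.19 in dose order, where the median over all genes was within 0.01 of 0 at every dose. These 5 comparisons share the vehicle arrays. The moderated F over the 5 doses called 14 members (6.71% of genes): Mki67, Cdk1, Ccna2, Ccnb2, Cdkn3, Aurkb, Bub1, Birc5, Cdc20, Kif11, Kif2c, Kif20a, Ect2 and Tk1. It also called 1 dimmer probe set each of Ccnb1, Racgap1 and Tk1, but no other probe set of Cdc20, Kif11 or Kif2c.

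The count at 516.2 mg/kg rested on single arrays. Without replicate 3 of that group only 1 member, Kif11, was called, and without replicate 1 there were 5. Leaving out vehicle replicate 1, 2, 3 or 4 gave 5, 4, 4 and 5, whereas leaving out vehicle replicate 5, the highest, gave 17. A fit on the 9 arrays of both groups alone called 4. The Gapdh and beta-actin controls give a sign of RNA quality as signal at the 5′ end minus that at the 3′ end. It was -2.50, -1.59 and -2.83 on the 516.2 mg/kg arrays and ran from -2.40 to -1.68 in the vehicle group. Other doses also went beyond the vehicle range, with -3.095, -1.652 and -1.35 at 258.1 mg/kg and -1.961, -1.371 and -1.276 at 1032.5 mg/kg. With that difference between the ends as a covariate, chosen after seeing the data, 5 members were called at 516.2 mg/kg. The count at 258.1 mg/kg fell to 0 without replicate 3 of that group, to 1 without replicate 1 or 2 or without vehicle replicate 1 or 2, to 2 without vehicle replicate 3, and to 1 in the fit on both groups alone.

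**Figure D3:**
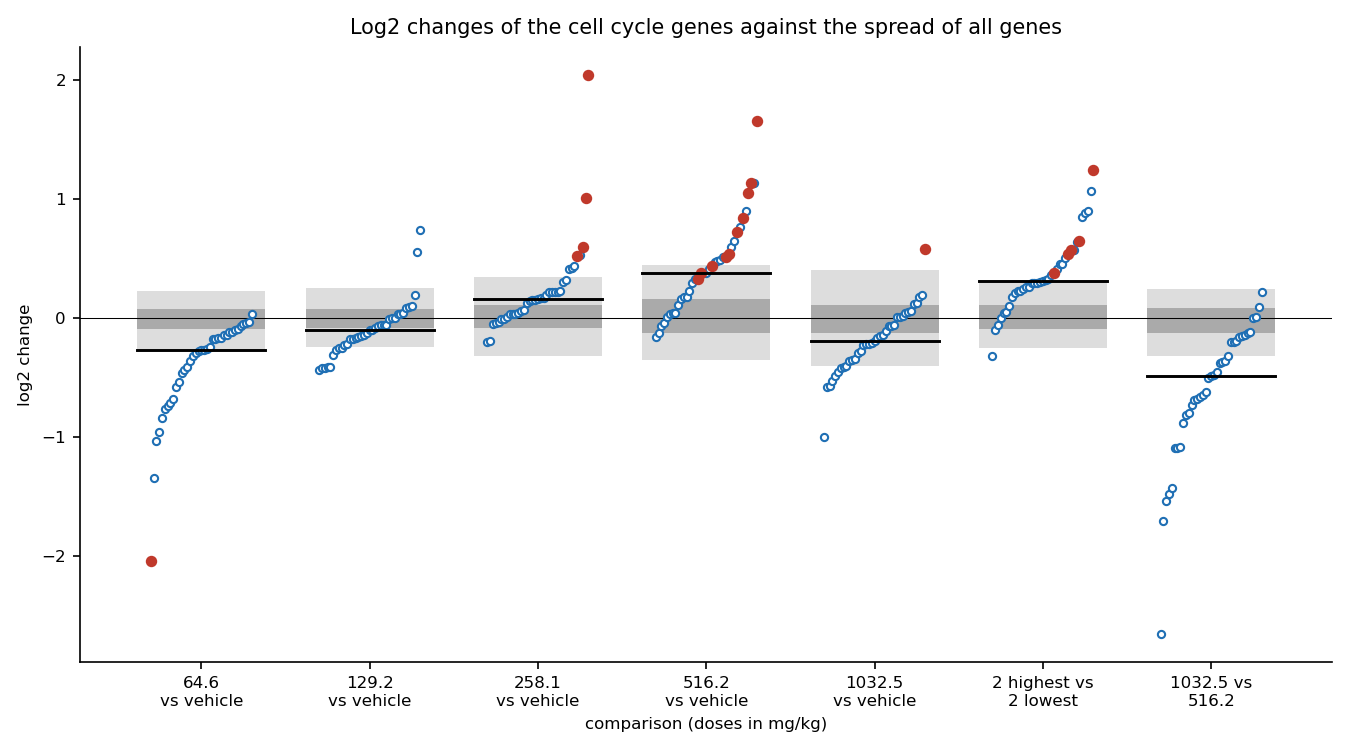
Log2 change of each of the 37 genes (circles, ordered by size, filled red where called) in 7 comparisons, over the middle 50% (dark grey) and 90% (light grey) of all 14217 genes, with the member median as a black line. The member median is -0.27 at 64.6 mg/kg, 0.38 at 516.2 mg/kg and -0.49 between 1032.5 and 516.2 mg/kg.

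Mki67 encodes the Ki-67 antigen of cycling cells, and Top2a the topoisomerase that untangles chromosomes. The vehicle arrays read 4.45, 5.43 and 6.31 for Mki67 (lowest, median and highest of 6). The dosed arrays read 4.33, 4.45 and 4.54 at 64.6 mg/kg, 5.25, 5.29 and 4.36 at 129.2, 5.92, 5.86 and 5.06 at 258.1, 5.96, 6.44 and 6.49 at 516.2 and 4.96, 4.28 and 5.36 at 1032.5. At 64.6 mg/kg all 3 lay at or near the lowest vehicle array, and at 516.2 mg/kg replicates 2 and 3 lay above every vehicle array. The difference at 516.2 mg/kg was 0.90 ± 0.30 (1.87-fold higher, limma adjusted p = 0.0854) and was not called, while the F over the 5 doses was (adjusted p = 0.0215). Top2a gave 5.96, 6.58 and 7.27 in the vehicle group. With BPDP it gave 6.07, 5.84 and 6.14 at 64.6 mg/kg, 6.31, 6.22 and 6.05 at 129.2, 6.62, 6.41 and 6.16 at 258.1, 6.22, 7.11 and 6.59 at 516.2 and 5.99, 5.84 and 6.63 at 1032.5. All groups overlapped the vehicle range in part, and the difference at 516.2 mg/kg was 0.04 ± 0.22 (adjusted p = 0.94), with the other Top2a probe set at -0.12.

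Among the cyclins and their partners, 3 of 7 members rose at 516.2 mg/kg (6.3% of genes) and 2 at 258.1 mg/kg (2.23%). Cdkn3, a phosphatase that acts on cyclin-dependent kinases, had the widest range of the module. Vehicle arrays read 5.31, 7.02 and 8.0. Dosed arrays read 4.60, 4.97 and 5.06 at 64.6 mg/kg, 8.05, 7.12 and 7.25 at 129.2, 8.79, 8.98 and 9.10 at 258.1, 8.52, 8.49 and 8.69 at 516.2 and 5.18, 5.53 and 7.05 at 1032.5. The 64.6 mg/kg arrays all lay below the vehicle group and the 258.1 and 516.2 mg/kg arrays all above it, while those at 1032.5 mg/kg ran from just below it to its middle. Cdkn3 fell by 2.04 ± 0.42 at 64.6 mg/kg (limma adjusted p = 0.0397), to a mean of 4.88 that lies below the lower quartile of the arrays. It rose 4.1-fold at 258.1 mg/kg (log2 2.04 ± 0.42, adjusted p = 0.0109) and 3.14-fold at 516.2 mg/kg (log2 1.65 ± 0.42, adjusted p = 0.0235). The call at 64.6 mg/kg was lost on leaving out any of 14 of the 21 arrays (adjusted p up to 0.204), and 4 members were called there without vehicle replicate 3. The call at 516.2 mg/kg was lost without replicate 1 or 3 of that group (adjusted p up to 0.0969), and the call at 258.1 mg/kg on leaving out 1 array (0.0768).

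Ccnb2 encodes cyclin B2, which activates Cdk1 at entry to mitosis. Its vehicle arrays read 5.95, 6.63 and 7.47. The dosed arrays read 6.19, 5.51 and 6.17 at 64.6 mg/kg, 7.0, 6.57 and 6.90 at 129.2, 7.73, 7.85 and 7.61 at 258.1, 7.52, 7.69 and 8.10 at 516.2 and 5.93, 6.20 and 6.76 at 1032.5. Every array at 258.1 and 516.2 mg/kg lay above every vehicle array. Ccnb2 rose 2.01-fold at 258.1 mg/kg (log2 1.01 ± 0.26, limma adjusted p = 0.0419) and 2.08-fold at 516.2 mg/kg (log2 1.05 ± 0.26, adjusted p = 0.0192). The second call was lost only without replicate 3 of that group (0.122), and the first on leaving out any of 9 arrays (up to 0.148). In the fit on both groups alone neither call remained (0.109 and 0.0625).

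Ccna2 encodes cyclin A2, which acts in S phase and early mitosis. It read 4.0, 5.04 and 5.82 in the vehicle group. It read 4.10, 4.11 and 4.38 at 64.6 mg/kg, 4.61, 4.78 and 4.49 at 129.2, 5.79, 5.35 and 5.30 at 258.1, 5.45, 6.40 and 6.64 at 516.2 and 4.41, 3.91 and 5.08 at 1032.5. At 516.2 mg/kg replicate 1 lay inside the vehicle range and the others above it. Ccna2 rose by 1.13 ± 0.31 on the log2 scale at that dose (limma adjusted p = 0.0356), from a vehicle mean of 5.04 below the lower quartile, so no fold is given. The call was lost on leaving out any of 6 arrays (adjusted p up to 0.201).

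Cdk1, the kinase that drives mitosis, read 5.17, 6.36 and 7.16 in the vehicle group. Its dosed arrays read 5.45, 4.95 and 5.40 at 64.6 mg/kg, 6.13, 6.09 and 5.98 at 129.2, 7.01, 6.83 and 6.64 at 258.1, 6.34, 7.38 and 7.46 at 516.2 and 5.47, 5.67 and 6.75 at 1032.5. Replicate 1 at 516.2 mg/kg sat near the vehicle median while the others exceeded every vehicle array. The difference at 516.2 mg/kg was 0.76 ± 0.33 (limma adjusted p = 0.184), and Cdk1 was called only by the F over doses (adjusted p = 0.0411). Ccnb1, encoding cyclin B1, read 4.78, 5.70 and 6.45 in the vehicle group. With BPDP it read 4.82, 5.19 and 5.16 at 64.6 mg/kg, 5.77, 5.71 and 5.29 at 129.2, 6.05, 5.90 and 5.68 at 258.1, 5.90, 6.46 and 6.28 at 516.2 and 5.16, 5.24 and 5.61 at 1032.5. The 516.2 mg/kg arrays lay in the upper part of the vehicle range or just above it, a difference of 0.48 ± 0.25 (adjusted p = 0.291), and the other Ccnb1 probe set differed by 0.83 (adjusted p = 0.0809) and was called by the F over doses (adjusted p = 0.0338).

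Neither G1 cyclin was called. Ccnd1, encoding cyclin D1, which responds to growth signals early in G1, read 8.57, 9.69 and 10.48 in the vehicle group. With BPDP it read 8.91, 10.04 and 10.09 at 64.6 mg/kg, 10.60, 10.49 and 10.08 at 129.2, 8.99, 10.02 and 10.04 at 258.1, 9.68, 9.79 and 9.35 at 516.2 and 9.78, 10.10 and 9.60 at 1032.5. Arrays of one group differed by over 1 log2 unit at 64.6 and 258.1 mg/kg and in the vehicle group. The difference was 0.74 ± 0.32 at 129.2 mg/kg (limma adjusted p = 0.596) and -0.04 ± 0.32 at 516.2 mg/kg (adjusted p = 0.96), and the direction of the latter changed with the probe set and the scaling. Ccne1, encoding cyclin E1 of the G1 to S transition, was not called in any comparison, with a difference of 0.18 ± 0.15 at 516.2 mg/kg.

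Of the 8 checkpoint, mitotic kinase and anaphase members, Bub1 and Birc5 rose at 516.2 mg/kg (6.3% of genes) and Birc5 also at 258.1 mg/kg (2.23%). Bub1 encodes a kinase of the spindle checkpoint. It read 4.05, 4.59 and 5.20 in the vehicle group. Dosed arrays read 3.96, 4.23 and 4.38 at 64.6 mg/kg, 4.83, 4.46 and 4.29 at 129.2, 4.85, 4.88 and 5.06 at 258.1, 5.41, 5.18 and 5.82 at 516.2 and 4.37, 4.27 and 4.55 at 1032.5. Replicate 2 at 516.2 mg/kg lay just under the highest vehicle array and the others exceeded it. Bub1 rose by 0.84 ± 0.18 on the log2 scale (limma adjusted p = 0.0098), a call lost only without replicate 3 of that group (0.0869), from a vehicle mean of 4.63, under the 5.10 that a fold requires here.

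Birc5 encodes survivin, part of the chromosomal passenger complex that guides chromosome attachment. Vehicle arrays gave 6.40, 6.50 and 7.07. Dosed arrays gave 6.69, 6.20 and 6.76 at 64.6 mg/kg, 6.75, 6.67 and 6.66 at 129.2, 7.24, 7.23 and 7.18 at 258.1, 6.99, 7.20 and 7.26 at 516.2 and 6.45, 6.60 and 6.97 at 1032.5. All 258.1 mg/kg arrays, and replicates 2 and 3 at 516.2 mg/kg, lay above the vehicle group. Birc5 rose 1.52-fold (log2 0.60 ± 0.14, limma adjusted p = 0.0266) and 1.45-fold (log2 0.54 ± 0.14, adjusted p = 0.0302) at these doses, and each call was lost on leaving out any of 6 arrays.

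Aurkb, the passenger kinase, and Cdc20, an activator of the anaphase-promoting complex, were called only by the F over doses (limma adjusted p = 0.0478 and 0.0347). The other Cdc20 probe sets, all dimmer, were not called by the F (adjusted p = 0.448, 0.123, 0.768 and 0.434). Aurkb read 4.31, 4.79 and 5.30 in the vehicle group. It read 4.60, 4.46 and 4.29 at 64.6 mg/kg, 4.67, 4.50 and 4.43 at 129.2, 5.25, 4.89 and 5.24 at 258.1, 5.38, 5.61 and 5.38 at 516.2 and 4.32, 4.35 and 5.31 at 1032.5. All 3 arrays at 516.2 mg/kg were above the vehicle group, a difference of 0.65 ± 0.20 (adjusted p = 0.058). Cdc20 read 6.30, 6.87 and 7.48 in the vehicle group. It read 6.44, 6.04 and 6.05 at 64.6 mg/kg, 6.46, 6.60 and 6.36 at 129.2, 6.83, 7.01 and 6.82 at 258.1, 6.89, 7.37 and 7.17 at 516.2 and 5.99, 6.19 and 6.83 at 1032.5. At 64.6 mg/kg replicates 2 and 3, and at 1032.5 mg/kg replicates 1 and 2, lay below the vehicle group, and no array at 516.2 mg/kg lay above it. The remaining members of this role, Aurka, Bub1b, Plk1 and Ube2c, were not called in any comparison, with differences at 516.2 mg/kg of 0.29, 0.03, 0.01 and 0.38.

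Of the 8 spindle and cytokinesis members, only Kif11 was called at a single dose against vehicle. On the brightest probe sets Kif11 was the only one of the 37 members called at 1032.5 mg/kg. It encodes the kinesin that pushes spindle poles apart. The vehicle arrays gave 5.16, 5.75 and 5.89. Dosed arrays gave 5.45, 5.51 and 5.55 at 64.6 mg/kg, 6.09, 5.84 and 5.69 at 129.2, 6.33, 6.10 and 6.18 at 258.1, 6.43, 6.25 and 6.53 at 516.2 and 6.15, 6.29 and 6.37 at 1032.5. Every array at 258.1, 516.2 and 1032.5 mg/kg was above every vehicle array. Kif11 rose 1.43-fold (log2 0.52 ± 0.13, limma adjusted p = 0.0367), 1.65-fold (0.72 ± 0.13, adjusted p = 0.00213) and 1.5-fold (0.58 ± 0.13, adjusted p = 0.0073) at these doses. Among the 15 dosed arrays its slope was 0.21 ± 0.03 log2 units per dose step (adjusted p = 0.00212), the only member called by that slope on its brightest probe set (3.41% of genes, 2.28% higher). The calls at 516.2 and 1032.5 mg/kg and of the slope held with each array left out in turn, while that at 258.1 mg/kg was lost without any of 5 arrays (up to 0.202). They rest on 1 probe set: the other Kif11 probe set, at vehicle and 516.2 mg/kg means of 5.49 and 5.55, differed by 0.06 (adjusted p = 0.837) and 0.12 at 1032.5 mg/kg (0.735), with a slope of 0.01 (0.892).

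The other spindle and cytokinesis members passed no test at a single dose. Kif20a, a kinesin of the central spindle, read 6.27, 6.90 and 7.52 in the vehicle group. It read 6.03, 6.14 and 6.28 at 64.6 mg/kg, 6.79, 6.60 and 6.70 at 129.2, 7.38, 7.43 and 7.0 at 258.1, 7.19, 7.51 and 7.70 at 516.2 and 6.20, 6.09 and 6.83 at 1032.5. Arrays at 64.6 mg/kg lay at the bottom of the vehicle range or below it, replicates 1 and 2 at 1032.5 mg/kg lay below it, and only replicate 3 at 516.2 mg/kg lay above that range. The difference at 516.2 mg/kg was 0.60 ± 0.20 (limma adjusted p = 0.0791), and the F over doses was called (adjusted p = 0.00501).

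Ect2 encodes an exchange factor that starts the cleavage furrow. Vehicle values were 4.62, 6.15 and 7.33. Dosed values were 4.84, 4.32 and 5.09 at 64.6 mg/kg, 6.16, 5.59 and 5.25 at 129.2, 6.96, 6.41 and 6.17 at 258.1, 6.76, 7.45 and 7.45 at 516.2 and 5.53, 5.18 and 6.33 at 1032.5. Replicates 2 and 3 at 516.2 mg/kg lay above the vehicle group, whose own values were spread as widely as the group means. The difference was 1.13 ± 0.39 at 516.2 mg/kg and -1.34 ± 0.39 at 64.6 mg/kg (limma adjusted p = 0.0917 and 0.213), and the F was called (0.0202). Kif2c, a kinesin that shortens microtubules, was called by the F on its brightest probe set (adjusted p = 0.0463) but not on the other (0.984). On the brightest one, Kif2c read 5.43, 6.04 and 6.20 in the vehicle group. Its dosed arrays read 5.37, 5.72 and 5.36 at 64.6 mg/kg, 5.54, 5.74 and 5.62 at 129.2, 6.39, 5.96 and 5.90 at 258.1, 6.05, 6.10 and 6.13 at 516.2 and 5.73, 5.53 and 5.69 at 1032.5. Replicates 1 and 3 at 64.6 mg/kg lay below the vehicle range, replicate 1 at 258.1 mg/kg lay above it, and the other dosed arrays lay inside it. Kif22, Nusap1, Prc1 and Racgap1 were not called on their brightest probe sets, with differences at 516.2 mg/kg of 0.51, 0.41, 0.47 and -0.13, while the other Racgap1 probe set, of near equal brightness, differed by 0.57 and was called by the F over doses (adjusted p = 0.0394).

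**Figure D4:**
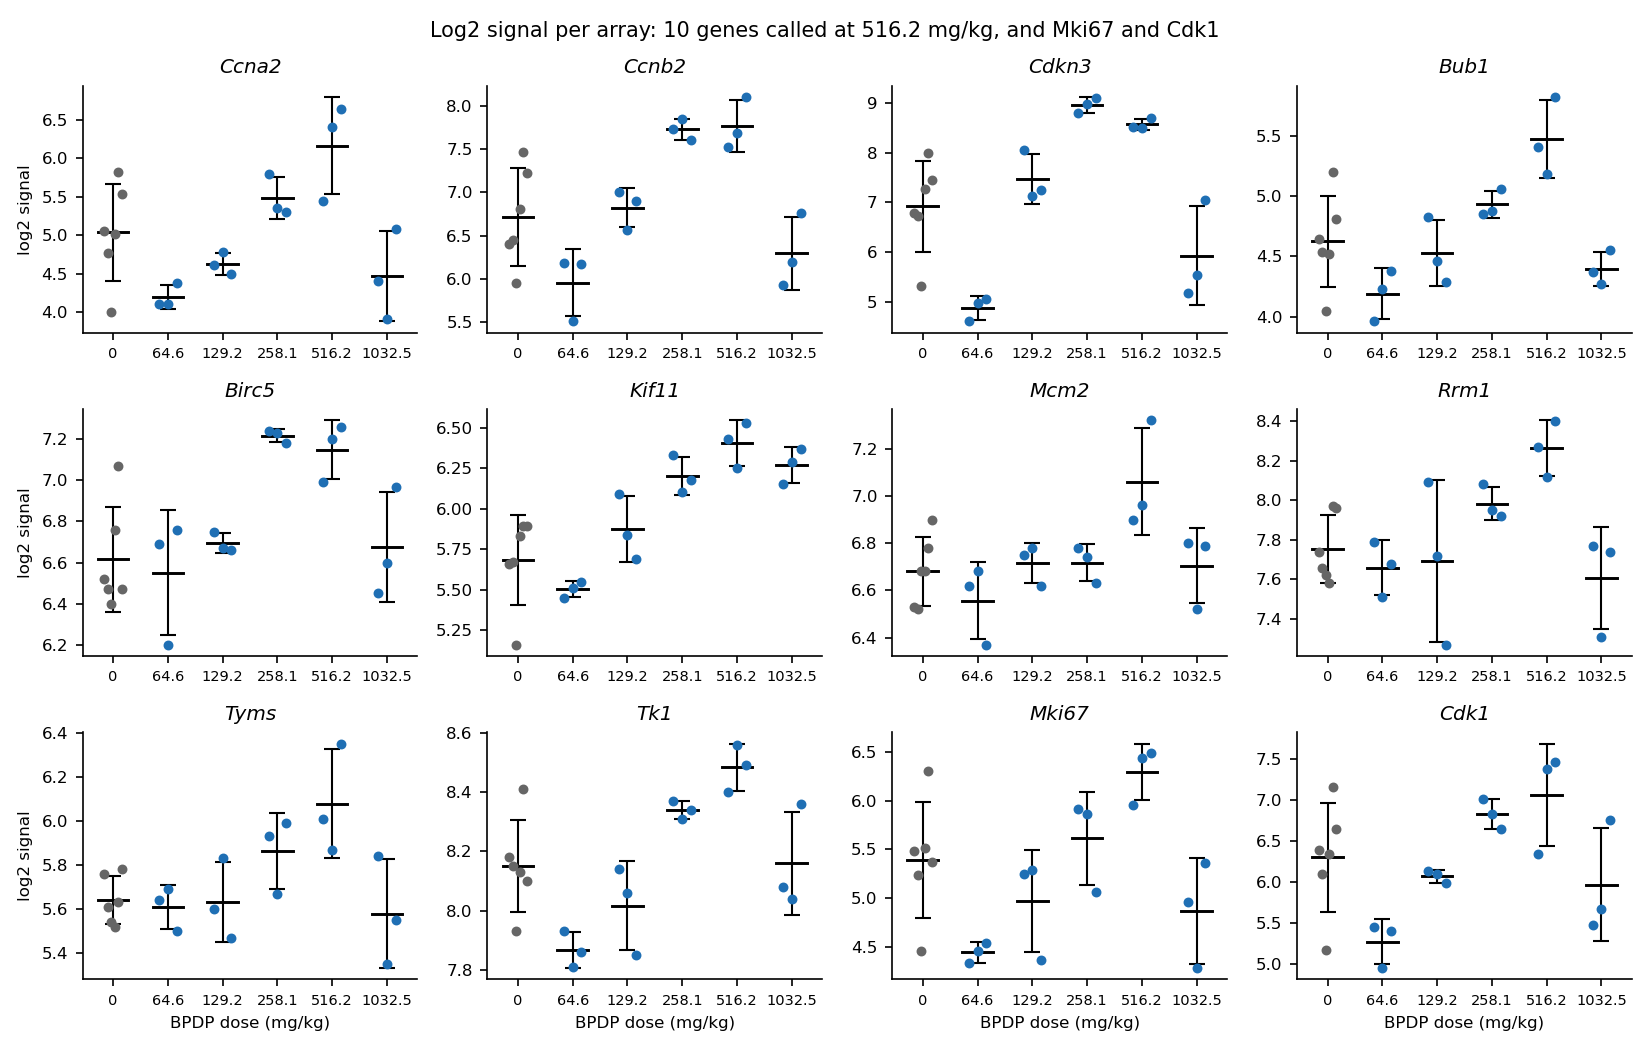
Log2 signal on each array (points, vehicle grey) against BPDP dose in mg/kg for the 10 genes called at 516.2 mg/kg and for Mki67 and Cdk1, with group means (bars) and SD (whiskers); each panel has its own log2 axis. Kif11 stays between 6.15 and 6.37 at 1032.5 mg/kg, above all vehicle arrays, while Cdkn3 lies between 5.18 and 7.05 there.

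Of the 9 replication members, only Mcm2 rose at 516.2 mg/kg, where 6.3% of genes did, and the median difference of the 9 was 0.18. Mcm2, a subunit of the MCM helicase, read 6.52, 6.68 and 6.90 in the vehicle group. With BPDP it read 6.62, 6.68 and 6.37 at 64.6 mg/kg, 6.75, 6.78 and 6.62 at 129.2, 6.78, 6.74 and 6.63 at 258.1, 6.90, 6.96 and 7.32 at 516.2 and 6.80, 6.52 and 6.79 at 1032.5. The lowest 516.2 mg/kg array lay level with the highest vehicle array to 2 decimals. Mcm2 rose 1.3-fold (log2 0.38 ± 0.11, limma adjusted p = 0.0374), a call lost on leaving out any of 6 arrays (up to 0.262). Mcm6, another helicase subunit, read 5.66, 6.06 and 6.54 in the vehicle group. With BPDP it read 5.75, 5.84 and 5.87 at 64.6 mg/kg, 6.02, 6.07 and 5.72 at 129.2, 6.24, 6.21 and 6.36 at 258.1, 6.22, 6.70 and 6.90 at 516.2 and 6.28, 6.04 and 6.39 at 1032.5. Replicates 2 and 3 at 516.2 mg/kg were above the vehicle range, and the difference of 0.49 ± 0.16 was not called (adjusted p = 0.0735).

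Pcna, the sliding clamp of replication, read 8.91, 9.09 and 9.59 in the vehicle group. With BPDP it read 8.72, 9.02 and 9.13 at 64.6 mg/kg, 9.44, 9.24 and 9.18 at 129.2, 9.36, 9.20 and 9.57 at 258.1, 9.15, 9.50 and 9.49 at 516.2 and 9.25, 9.44 and 9.48 at 1032.5. All its groups overlapped the vehicle range, and it differed by 0.18 ± 0.14 at 516.2 mg/kg (limma adjusted p = 0.498). The helicase subunits Mcm3, Mcm4, Mcm5 and Mcm7 differed by -0.16, 0.38, 0.04 and 0.11, the licensing inhibitor Gmnn by -0.07 and the transcription factor E2f1 by 0.33, none of them called.

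All 3 nucleotide supply members with a probe set of their own rose at 516.2 mg/kg (6.3% of genes), and on the brightest probe set they were called at no other dose. Rrm1, the large subunit of ribonucleotide reductase, read 7.58, 7.70 and 7.97 in the vehicle group. It read 7.79, 7.51 and 7.68 at 64.6 mg/kg, 8.09, 7.72 and 7.27 at 129.2, 8.08, 7.95 and 7.92 at 258.1, 8.27, 8.12 and 8.40 at 516.2 and 7.77, 7.31 and 7.74 at 1032.5. Each 516.2 mg/kg array exceeded the vehicle group, and Rrm1 rose 1.42-fold (log2 0.51 ± 0.14, limma adjusted p = 0.039). Tyms, which makes thymidylate, read 5.52, 5.62 and 5.78 in the vehicle group. Dosed arrays read 5.64, 5.69 and 5.50 at 64.6 mg/kg, 5.60, 5.83 and 5.47 at 129.2, 5.93, 5.67 and 5.99 at 258.1, 6.01, 5.87 and 6.35 at 516.2 and 5.84, 5.35 and 5.55 at 1032.5. All 516.2 mg/kg arrays were higher than all vehicle arrays, and Tyms rose 1.35-fold (log2 0.44 ± 0.12, adjusted p = 0.0317).

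Tk1, the thymidine kinase of the salvage route, read 7.93, 8.14 and 8.41 in the vehicle group. Dosed arrays read 7.93, 7.81 and 7.86 at 64.6 mg/kg, 8.14, 8.06 and 7.85 at 129.2, 8.37, 8.31 and 8.34 at 258.1, 8.40, 8.56 and 8.49 at 516.2 and 8.08, 8.04 and 8.36 at 1032.5. The 64.6 mg/kg arrays lay at or below the lowest vehicle array, and replicate 1 at 516.2 mg/kg lay just under the highest. Tk1 rose 1.26-fold at 516.2 mg/kg (log2 0.33 ± 0.09, limma adjusted p = 0.039). Its second probe set rose by 0.87 ± 0.12 (adjusted p = 0.000149), with all 3 arrays above the vehicle group, and was also called at 258.1 and 1032.5 mg/kg (0.00106 and 0.00834) and by the slope, at 0.21 ± 0.05 log2 units per dose step (0.0279). The third and dimmest Tk1 probe set differed by 0.07 at 516.2 mg/kg (limma adjusted p = 0.639) and was called in no comparison. On the brightest probe sets, the calls of Rrm1, Tyms and Tk1 were lost on leaving out any of 6, 5 and 8 arrays (adjusted p up to 0.177, 0.227 and 0.123). Rrm2, the small subunit, was read with Rrm2l1 by 2 probe sets that differed by 0.61 and 0.38 at 516.2 mg/kg, neither called there. Both were called by the F over doses (adjusted p = 0.0383 and 0.0478), and they differed by -2.10 and -0.62 at 64.6 mg/kg (adjusted p = 0.11 and 0.377).

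Comparisons that leave out the vehicle arrays address dose within the treated animals. The 2 highest doses against the 2 lowest called 5 members, all higher (3.5% of genes, 2.33% higher), with a median member difference of 0.31. Kif11 was 1.57-fold higher (log2 0.65 ± 0.11, limma adjusted p = 0.00141), the only member whose groups did not overlap (1.62% of genes), but its other probe set differed by 0.04 (0.901). Tk1 was 1.3-fold higher (limma adjusted p = 0.00808) and Mcm6 1.46-fold (0.0306). Ect2 differed by 1.24 on the log2 scale (0.0406), with no fold since its 64.6 mg/kg mean was 4.75, and Bub1 by 0.57 ± 0.15 (0.0467). The 2 highest doses did not act alike. At 1032.5 mg/kg the mean was 4.39 for Bub1 and 5.68 for Ect2, against 4.53 and 5.67 at 129.2 mg/kg. For Tk1 and Mcm6 it was 8.16 and 6.24, against 8.02 and 5.94. The count ran from 2 to 9 with single arrays left out. It was 2 without any one of the 64.6 mg/kg arrays, 129.2 mg/kg replicate 3, 516.2 mg/kg replicate 3 or 1032.5 mg/kg replicate 1 or 3. It was 3 without vehicle replicate 1 or 2, 129.2 mg/kg replicate 2 or 516.2 mg/kg replicate 2, and 9 without vehicle replicate 3, which enters only through the shared spread.

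Between the 2 highest doses, 1032.5 mg/kg was lower than 516.2 mg/kg in 34 of 37 members, with a median difference of -0.49 (-0.02 over all genes). No member and no gene was called by limma (0% of genes), and 23 members and 1471 genes (10.3% of all genes) had an unadjusted p under 0.05. All 3 arrays at 1032.5 mg/kg were below all 3 at 516.2 mg/kg in 21 members, where 7.56% of genes were. Cdkn3 was 6.27-fold lower (log2 -2.65 ± 0.48, adjusted p = 0.121), Ccnb2 2.78-fold lower (0.158), and Mki67 differed by -1.43 ± 0.35 (0.261). Kif11 and Pcna differed by -0.14 ± 0.15 and 0.01 ± 0.16. Leaving out vehicle replicate 3, 516.2 mg/kg replicate 2 or 1032.5 mg/kg replicate 3 gave 1, 2 and 1 calls.

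Other genes of the cycle were read from 4 further lists that share no gene with the members. Of 35 measured genes of G2 and mitosis, 6 rose at 516.2 mg/kg and none fell, 3 rose at 258.1 mg/kg, and 3 fell at 1032.5 mg/kg, where 6.3% of all genes rose, 2.23% rose and 4.14% fell at these doses. Stmn1, which destabilises microtubules, rose 1.88-fold at 516.2 mg/kg (log2 0.91 ± 0.19, limma adjusted p = 0.00762), and Spc24, a kinetochore subunit, 1.80-fold (adjusted p = 0.0197). The checkpoint gene Mad2l1 rose 1.62-fold and the kinetochore gene Spc25 1.59-fold (0.00394 and 0.0418). At 1032.5 mg/kg Cdc25b, a phosphatase that activates cyclin-dependent kinases, fell 2.15-fold (0.0373), Nuf2, a kinetochore subunit, 1.41-fold (0.0432) and Incenp, a passenger subunit, 1.21-fold (0.026). Foxm1, a transcription factor of mitotic genes, differed by 0.27 ± 0.08 at 516.2 mg/kg (adjusted p = 0.0579) and Mybl2, a partner in the same wave, by -0.19 ± 0.12 (0.375).

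In the list for replication and S phase, 4 of 27 rose at 516.2 mg/kg and none fell, against 6.3% and 2.64% of all genes. Hells, a chromatin remodeller of the helicase family, rose 1.54-fold there, and it also rose at 64.6 mg/kg (1.65-fold, limma adjusted p = 0.0143), 258.1 mg/kg and 1032.5 mg/kg. Pola1, the catalytic subunit of polymerase alpha, rose 1.44-fold (0.00169), Rfc4 of the clamp loader 1.42-fold (0.00389) and the nucleotide hydrolase Dut 1.33-fold (0.031). None of 14 G1 cyclins, kinases and pocket proteins was called by limma in any comparison. An unadjusted p under 0.05 was reached by none at 516.2 mg/kg and 3 at 1032.5 mg/kg, against 27.0% and 23.3% of all genes. The most in this list was 6, for the slope (19.2% of all genes). Myc, a growth-associated transcription factor in that list, differed by 0.23 ± 0.38 at 516.2 mg/kg and 0.77 ± 0.38 at 1032.5 mg/kg (0.772 and 0.302).

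Of 14 inhibitors of cyclin-dependent kinases and antiproliferative genes, 3 rose and 1 fell at 516.2 mg/kg, against 6.3% and 2.64% of all genes. Cdkn1a, which encodes p21, was lower at every dose with no overlap with the vehicle group. Its log2 change was -2.07 at the lowest dose, then -1.5, -1.5 and -1.52, and -2.32 at the highest, each with an SE of 0.22 (limma adjusted p between 1.53e-06 and 0.00232). Wee1, a kinase that restrains Cdk1, rose 1.62-fold at 516.2 mg/kg and 1.91-fold at 1032.5 mg/kg (0.00403 and 0.000151). At 516.2 mg/kg Tob1 rose 1.61-fold (0.0231) and Cdkn2c 1.33-fold (0.0359).

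Markers of other liver cell types were also called, and their part in the cell cycle values was not tested. Of 15 stellate cell and fibroblast markers 7 fell at 516.2 mg/kg and none rose (2.64% of all genes fell), with a mean log2 level from 6.89 to 7.21 there and from 7.40 to 7.79 in the vehicle group. Dcn fell 2.14-fold and Pdgfrb 1.81-fold (limma adjusted p = 0.0207 and 0.00266). Of 11 endothelial markers 2 fell, Kdr 1.58-fold and Stab1 1.38-fold, and the list ranged from 8.21 to 8.58 at 516.2 mg/kg against 8.34 to 9.0. Of 15 lymphocyte markers Ms4a1 fell 1.30-fold, with the list at 5.66 to 5.75 against 5.81 to 6.04. None of 11 Kupffer cell markers was called at 516.2 mg/kg, though 9 had an unadjusted p under 0.05, against 27.0% of all genes. The Kupffer cell list ranged from 9.51 to 9.98 there against 9.81 to 10.26.

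Of 6 cholangiocyte markers Epcam rose 1.65-fold (limma adjusted p = 0.00311), with the list at 6.07 to 6.33 against 5.95 to 6.30. None of 6 neutrophil markers was called at 516.2 mg/kg, where 27.0% of all genes had an unadjusted p under 0.05, as 2 of these did. The neutrophil list lay at 5.56 to 5.70 against 5.77 to 6.79. The red cell list, none of whose 5 genes was called at 516.2 mg/kg (1 unadjusted), ranged from 6.90 to 8.47 against 7.45 to 8.22. The hepatocyte list, with none of 11 called (3 unadjusted), ranged from 14.07 to 14.10 against 14.08 to 14.22. At 1032.5 mg/kg Hbb fell 4.03-fold and Alas2 3.73-fold (adjusted p = 0.00506 and 0.0186), both red cell genes. There 4 of 15 stellate cell markers, 3 of 11 Kupffer cell, 2 of 15 lymphocyte, 2 of 11 hepatocyte and 1 of 11 endothelial markers also fell, where 4.14% of all genes did, and Cd14 of the Kupffer cell list and Epcam rose. The hepatocyte genes that fell were Ahsg by 1.14-fold and Apoc3 by 1.19-fold (limma adjusted p = 0.0466 and 0.00803).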

How the data were processed

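The authors deposited log2 signals summarised with RMA, per the submitters' processing notes, with 1 value for every probe set on an array. The RMA version is not given here. They were used as deposited. After removal of 57 control probe sets, 31042 were tested. Symbols come from the platform annotation, updated through RefSeq tables (GRCr8). A gene was represented by its brightest probe set naming it alone. Arrays were grouped by labelled dose.

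limma (version 3.58.1, R 4.3.3) fitted 1 mean per group over all 21 arrays (lmFit, eBayes), with Benjamini-Hochberg adjustment over all probe sets and a threshold of 0.05. The slope used the 15 dosed arrays and dose steps 1 to 5. Tested on simulated data for 516.2 mg/kg with 31042 probe sets, of 200 given a log2 change of 1 the fit called 190, and it called 10 unchanged ones. The simulated noise was independent between probe sets, whereas members moved together on an array. The change given was also larger than most called differences at that dose, so these counts do not carry over to the members. Folds are given only where both group means exceed 5.10.

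Members and lists were chosen with earlier results of these data known. Named were members called in any comparison, 7 index members, up to 4 called genes per further list, and up to 2 per marker list. Alternatives were the compared groups alone, cyclic loess, median subtraction, removal of the dimmer probe sets, trend and robust variance, array weights, a replicate block, other probe sets, each array left out, and, added after seeing the data, an RNA integrity covariate. The labels call the arrays separate samples, so p-values measure the spread between them, which may be technical.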

Additional observations from a re-analysis of the deposited data

Results flagged for a closer look

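Among 38 sets of 6 vehicle values examined with Dixon's criterion, 1 had an array far from the others. Vehicle replicate 3 read 5.16 for Kif11, where the median of the other 5 was 5.83, a gap of 0.685 of the whole range. Chance alone would flag about 5% of such sets. The same array was the lowest vehicle array in 25 of the 37 members.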

How the results depend on the processing

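No module mean moved by more than the spread between arrays under any alternative, and cyclic loess and median subtraction left every count of called members within 1.5 times. In fits limited to the compared groups, the counts were 0 at 64.6 mg/kg, 1 at 258.1 and 4 at 516.2. With the dimmer probe sets left out, 20 members remained in the fit, and the counts were 6 at 516.2 mg/kg, 0 at 1032.5, 6 for the F, 0 for the slope and 1 for the 2 highest against the 2 lowest doses. The members removed included Kif11, the only one called at 1032.5 mg/kg and by the slope, and also Bub1, Ect2, Mcm6, Ccna2 and Tyms. All 14 values of named members that stayed in the fit kept their direction and side of the threshold. These lower counts therefore reflect which genes were left out. An intensity trend with robust variance gave 0 at 64.6 mg/kg and 3 for the 2 highest against the 2 lowest. Array weights gave 0 at 64.6 mg/kg, 2 for the slope and 12 for the 2 highest against the 2 lowest. Averaging a gene's probe sets gave 2 for the slope, and the RNA integrity covariate 5 at 516.2 mg/kg. The cause of the other shifts was not tested.

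The replicate block gave 0 at 64.6 mg/kg, 17 at 516.2 and 10 for the 2 highest against the 2 lowest. Only the vehicle group holds replicates 4 to 6, so under the block its module mean rests on replicates 1 to 3 (6.55, 6.44 and 6.10). Leaving out vehicle replicate 5 alone also gave 17 at 516.2 mg/kg. Module mean differences became 0.102 at 129.2 mg/kg and 0.008 at 1032.5, from -0.093 and -0.187 without the block. Those at the other doses moved by the same amount, since only the vehicle mean changed. Against vehicle, the block therefore cannot separate pairing from the loss of these vehicle arrays. Same-numbered arrays were not treated as pairs, since their deviations from group means correlated at 0.03 on average (-0.28 to 0.394), against -0.015 for arrays of different numbers. As a hint from the data, 10 of 18 arrays correlated best with an array of their own number, where 45 pairs shared a number and 90 did not.

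With single arrays left out, counts ranged from 0 to 4 at 64.6 mg/kg, 0 to 4 at 258.1, 1 to 17 at 516.2, 1 to 4 at 1032.5, 7 to 16 for the F, 1 to 3 for the slope, 2 to 9 for the 2 highest against the 2 lowest, and 0 to 2 for 1032.5 against 516.2. The F count was 8 without 516.2 mg/kg replicate 2 and 7 without replicate 3, the slope count 3 without 1032.5 mg/kg replicate 2, and the count at 1032.5 mg/kg 4 without vehicle replicate 3 and 3 without its own replicate 3. At 64.6 mg/kg 14 omissions left no call.

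Of 807 alternative values for named members, 652 kept their direction and side of the threshold, 143 lost the call, 3 gained one and 9 changed sign. The sign changes were of uncalled differences at 516.2 mg/kg. Ccnd1 became 0.008 after median subtraction, 0.058 on its next probe set, 0.157 with the RNA integrity covariate and -0.258 to 0.124 with arrays left out. Top2a became -0.123 on its next probe set and -0.194 to 0.252 with arrays left out.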
